A study of Homo sapiens with 30 samples.

Results

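The 8 genes described here, *ZMAT3*, *PHLDA3*, *TP53INP1*, *AEN*, *TRIAP1*, *RPS27L*, *PERP* and *SPATA18*, are established direct targets of p53 that act outside the core cell cycle arrest and BCL2-type death genes. They were chosen by name from the 39359 genes of the count table and found in it by their identifiers. Of the 8, 7 had enough counts to be tested among 21335 genes, and *SPATA18* did not.

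All cultures were H1299, a human lung carcinoma line without p53. They were transfected with pGFP, which expresses GFP alone, or with a plasmid that expresses p53 protein as well. The p53 was wild type, RW mutant (R248W, altered at codon 248 in the DNA-binding domain) or *O*6-meG, which is wild type but for an *O*6-methylguanine in the template strand at that codon. RNA polymerase can place U opposite this lesion, which yields the RW mutant protein and is called transcriptional mutagenesis (TM). For p53 TM, cells with the *O*6-meG plasmid were given *O*6-bzG at 10 µM, an inhibitor of the repair protein AGT. No other culture received this agent, so that an effect of *O*6-bzG of its own and an effect of TM cannot be told apart here. In every vector the genes are driven by tetracycline-responsive promoters on a transiently transfected plasmid, and GFP-positive cells were sorted at 6 h or 24 h, so that a library holds RNA of transfected cells. In such bulk RNA, fewer cells that express a gene and less RNA per cell cannot be told apart.

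The 30 libraries were sequenced to between 32302699 and 71950532 counted reads, with a median of 44424643. Each group of vector and time has 3 replicates, except that at 6 h p53 *O*6-meG and p53 TM have 2 each. The titles of 2 further libraries, both replicate 2 at 6 h, name p53 *O*6-meG in 1 place and p53 TM in the other, and these 2 were left out of every group. The 6 h results for both vectors are therefore given without them, and the counts of members called also with the 2 added by the first part of their titles or by their genotype field. Column names of the raw counts follow the first part of the titles, and those of the normalized values follow the genotype field. Levels are given as CPM, read counts scaled to library size after TMM. The mesenchymal marker *VIM* and the epithelial keratins *KRT8* and *KRT18* were at 111 CPM or more in every library. In contrast, the epithelial markers *KRT19*, *EPCAM* and *CDH1* were at most 0.383 CPM, the lung lineage marker *NKX2-1* at most 1.2 CPM, and *SFTPB*, *SFTPC* and *SCGB1A1* at most 0.152 CPM. Of the markers of other cell types, *PTPRC* of leukocytes, *CD68* of macrophages, *CDH5* of endothelium and *COL3A1* of fibroblasts reached at most 0.210 CPM, the endothelial marker *PECAM1* 1.005 CPM and the fibroblast marker *COL1A1* 2.004 CPM.

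p53 is a transcription factor that binds DNA as a tetramer, each pair of subunits contacting a half-site of 10 bases. Its response elements consist of a pair of such half-sites, adjacent or a few bases apart, close to the start or in the first intron of the target gene. Upon stress p53 switches on targets with differing roles, and the 8 genes span several of them. *ZMAT3* encodes a zinc finger protein that binds RNA and influences splicing and stability of transcripts. *PHLDA3* encodes a pleckstrin homology domain protein that competes with AKT for membrane lipids and restrains AKT signalling. *TP53INP1* encodes a nuclear stress protein that takes part in autophagy and favours p53-dependent death. *AEN* encodes an exonuclease that degrades nucleic acids in apoptosis. *PERP* encodes a tetraspan membrane protein of desmosomes that is also an apoptosis effector. *TRIAP1*, in contrast, encodes a small mitochondrial protein with a survival role in lipid transfer. *RPS27L* encodes a ribosomal protein closely related to RPS27 that takes part in the regulation of MDM2. *SPATA18*, also called Mieap, encodes a protein of mitochondrial quality control.

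To show what p53 could contact at these genes, 2000 bases to each side of the RefSeq start were searched in the hg38 genome. A half-site was read as 3 purines, C, a pair of letters that are each A or T, G, and 3 pyrimidines, which is its own reverse complement and therefore covers both strands. The search asked for a pair of half-sites 0 to 13 bases apart. The core of each, from C through the A or T letters to G, had to match. The outer bases of both could hold at most 2 mismatches in all. Of the 8 genes, 6 had an entry in the table of RefSeq starts (GRCh38.p14), and *PHLDA3* and *TP53INP1* had none. Such a pair lay near 5 of the 6, namely *ZMAT3*, *AEN*, *TRIAP1*, *PERP* and *SPATA18*, and near 20.9% of all 35116 starts. Shown are the match without mismatch at *ZMAT3*, the nearest one to a start at *AEN*, and those at *PERP*, the member with the smallest fold change at 6 h, and at *SPATA18*, which stayed near silence. They are written on the gene's strand with 10 bases on each side, and capitals mark the half-sites.
ZMAT3: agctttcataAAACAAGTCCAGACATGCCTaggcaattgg
AEN: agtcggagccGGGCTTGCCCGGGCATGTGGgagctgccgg
PERP: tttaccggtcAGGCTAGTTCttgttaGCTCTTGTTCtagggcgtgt
SPATA18: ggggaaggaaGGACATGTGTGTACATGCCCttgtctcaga
The *ZMAT3* pair (chr3:179070188-179070207, minus strand, intron) had 0 mismatches and no spacer, a match found near 0.484% of all starts. Its centre lies at +1612 bases from 1 of the 2 RefSeq starts of *ZMAT3* and at −855 bases from the other. The *AEN* pair (chr15:88621306-88621325, plus strand) is centred at −25 bases and has 2 mismatches. So do the *PERP* pair (chr6:138106561-138106586, minus strand), at +846 bases and with a spacer of 6 bases, and the *SPATA18* pair (chr4:52051957-52051976, plus strand) at +662 bases. Both of the latter lie in introns. *TRIAP1* had 2 pairs with 2 mismatches each, centred at −556 and −1578 bases. In the narrower window from 250 bases before to 50 after the start, a half-site without mismatch was present at *AEN* and *RPS27L* and in 6.63% of all windows, and a pair was present at *AEN* and in 1.46%. These are matches of letters and do not show binding.

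In cells without p53 the 8 transcripts spanned a wide range. Per kilobase of exon (all exons of a gene merged, GENCODE v44), mean pGFP levels at 6 h were 28.1 CPM per kb for *TRIAP1*, 21.8 for *PERP*, 12.2 for *AEN*, 3.61 for *ZMAT3*, 3.42 for *RPS27L* and 2.16 for *TP53INP1*. The levels of *PHLDA3* and *SPATA18* were 0.00360 and 0.00382 CPM per kb, which is close to silent. With wild type p53 at 6 h, *TRIAP1* stood at 70.2 CPM per kb, *AEN* at 40.7, *PERP* at 34.9, *TP53INP1* at 17.2, *RPS27L* at 10.3, *ZMAT3* at 7.34 and *PHLDA3* at 1.87. By this measure *TP53INP1* had passed *RPS27L* and *ZMAT3*, and *AEN* had passed *PERP*. Merged exons can be longer than the transcripts expressed. They amounted to 8825 bases for *RPS27L*, 11298 for *ZMAT3* and 5643 for *TP53INP1*. The lengths of the transcripts expressed were not measured, so that the order of different genes is uncertain.

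**Figure D1:**
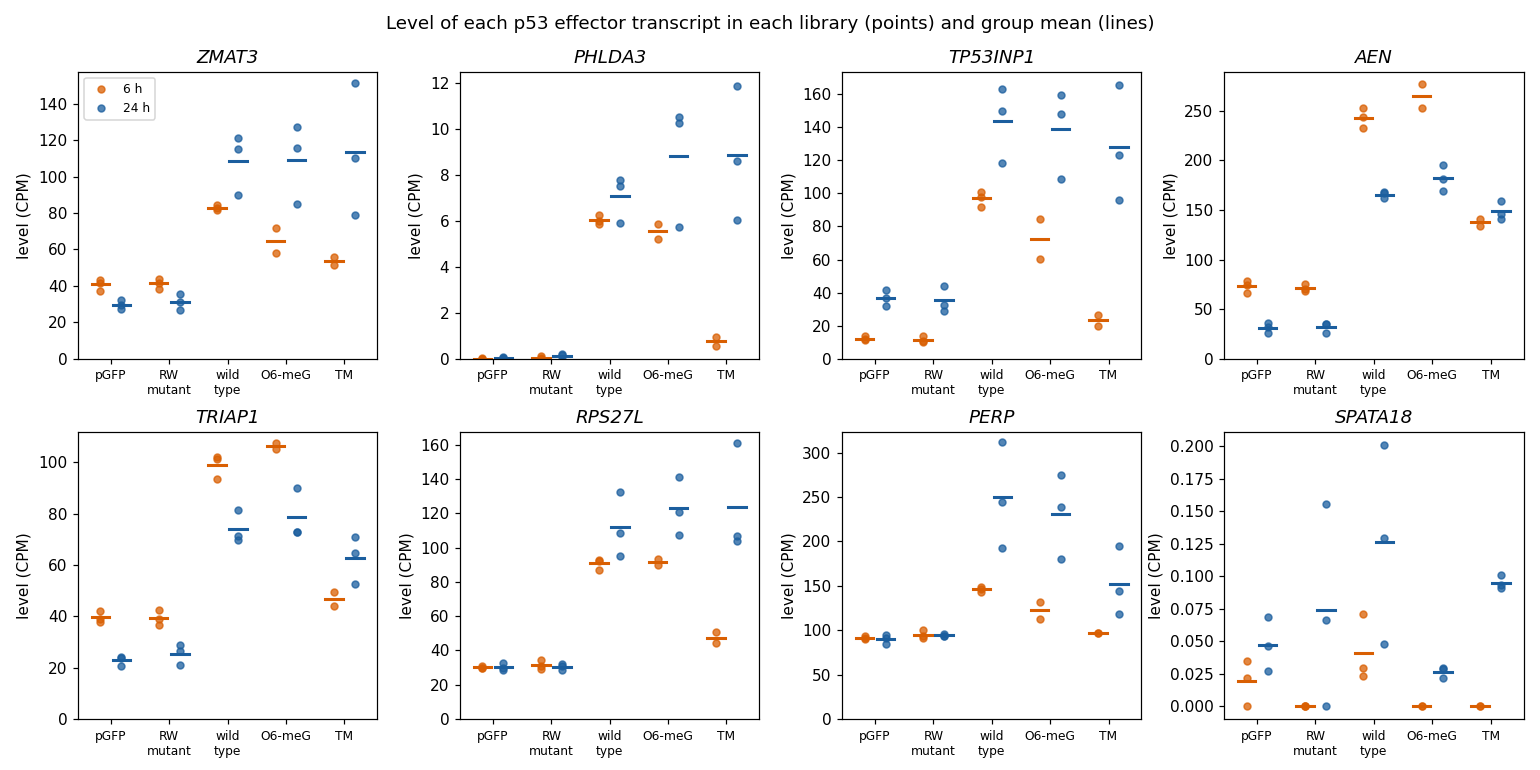
Level in CPM (y axis, linear, own scale in each panel) of the 8 transcripts in each library by vector (x axis) at 6 h (orange) and 24 h (blue), where a point is a library and a line the group mean. Of the 8 panels, 7 show wild type p53 libraries above the pGFP and RW mutant libraries of their time, and *SPATA18* stays at or below 0.201 CPM throughout. How many of all genes are separated in this way is not given here.

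*PHLDA3* (ENSG00000174307.6, chromosome 1, 201464278 to 201469237, minus strand) changed from near silence to a clear signal. At 6 h the 3 pGFP libraries held 0, 0 and 2 counts, and the 3 wild type p53 libraries 266, 257 and 406 counts, or 6.27, 5.89 and 6.02 CPM. The summed counts, scaled to library size, were 459-fold higher with wild type p53 (95% counting interval 127 to 3795, which covers counting error only). At 24 h the pGFP libraries held 1, 4 and 2 counts and wild type p53 gave 7.81, 7.53 and 5.92 CPM, a ratio of 126 (61.0 to 315). Part of its exons, 598 bases, overlaps an unnamed gene on the same strand, so that reads there cannot be assigned with certainty.

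*TP53INP1* (ENSG00000164938.13, chromosome 8, 94925972 to 94949378, minus strand) had the next largest response at 6 h. Its 3 pGFP libraries at that time held 11.7, 11.2 and 13.6 CPM and the wild type p53 libraries 98.0, 91.9 and 101 CPM, an increase of 2.99 ± 0.20 on the log2 scale (standard error; adjusted *P* = 5.6e-11 by edgeR's quasi-likelihood test, with *P* values adjusted after Benjamini-Hochberg). At 24 h wild type p53 gave 163, 150 and 118 CPM. The pGFP level had by then risen to 41.8, 36.5 and 32.02 CPM, 1.59 ± 0.20 above that at 6 h (adjusted *P* = 7.3e-07), so that the log2 fold change of wild type p53 was lower, at 1.97 ± 0.19, although the level itself was higher. Its exons share 225 bases with *NDUFAF6* on the opposite strand. The library kit is stranded, but whether counting used the strand is not given in the sources used here.

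The exonuclease gene *AEN* (ENSG00000181026.14, chromosome 15, 88621337 to 88632281, plus strand) moved differently over time. Wild type p53 gave 253, 243 and 233 CPM at 6 h against 78.2, 74.1 and 66.6 CPM with pGFP, and at 24 h 168, 167 and 162 CPM against 25.8, 31.9 and 36.3 CPM. Both levels were lower at 24 h. The pGFP level fell by 1.22 on the log2 scale (adjusted *P* = 7.7e-09), and the fold change of wild type p53 was larger at 24 h (2.40 ± 0.11) than at 6 h (1.74 ± 0.11). The survival gene *TRIAP1* (ENSG00000170855.3, chromosome 12, 120443964 to 120446384, minus strand) had a similar course, with log2 fold changes of 1.32 ± 0.11 and 1.70 ± 0.11. Its wild type libraries held 102, 101 and 93.5 CPM at 6 h and 69.6, 81.4 and 71.2 CPM at 24 h, and its pGFP libraries 42.3, 38.8 and 37.8 CPM and 20.7, 23.8 and 24.0 CPM. At both times the wild type and pGFP libraries of both genes did not overlap. The share of all genes without such overlap is not given here.

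*RPS27L* (ENSG00000185088.13, chromosome 15, 63125872 to 63158021, minus strand) had a steady baseline. The pGFP libraries held between 28.7 and 32.8 CPM over both times. Wild type p53 gave 92.9, 92.4 and 87.1 CPM at 6 h and 132, 109 and 95.3 CPM at 24 h, or log2 fold changes of 1.59 ± 0.13 and 1.88 ± 0.13. Reads of *RPS27L* and of its near copy *RPS27* could be exchanged in counting, so that its level is uncertain. *RPS27* itself differed from pGFP by 0.17 on the log2 scale with wild type p53 at 6 h (adjusted *P* = 0.15) and by 0.18 at 24 h (adjusted *P* = 0.043).

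*ZMAT3* (ENSG00000172667.10, chromosome 3, 178960121 to 179072215, minus strand) and *PERP* (ENSG00000112378.11, chromosome 6, 138088505 to 138107419, minus strand) had the smallest early responses. *ZMAT3* held 37.2, 41.8 and 43.4 CPM with pGFP and 84.6, 81.6 and 82.7 CPM with wild type p53 at 6 h, just past 2-fold at a log2 fold change of 1.02 ± 0.17. At 24 h it was at 29.5, 32.3 and 27.1 CPM with pGFP and 121, 115 and 89.7 CPM with wild type p53, a log2 fold change of 1.87 ± 0.17. *PERP* rose from 89.9, 90.9 and 94.0 CPM to 143, 149 and 147 CPM at 6 h, an increase of 0.68 ± 0.15 (adjusted *P* = 0.0027) that stays under 2-fold. At 24 h it held 312, 245 and 193 CPM with wild type p53 against 90.9, 94.2 and 85.0 CPM with pGFP (1.47 ± 0.15). Neither gene's wild type libraries overlapped those of pGFP at either time, for which the share of all genes is not given here.

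*SPATA18* (ENSG00000163071.10, chromosome 4, 52051304 to 52097299, plus strand) held at most 8 counts in any library. At 24 h the wild type p53 libraries had 8, 6 and 2 counts and the pGFP libraries 1, 3 and 2, and at 6 h they had 3, 1 and 2 against 0, 1 and 2. The groups overlapped, and a response was not detectable at this depth.

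With a call defined as at least 2-fold at an adjusted *P* under 0.05, 6 of the 7 tested members were higher with wild type p53 at 6 h and 7 of 7 at 24 h, where 4.39% and 9.22% of all genes tested were called higher. The median log2 fold change over the 7 was 1.59 at 6 h and 1.88 at 24 h, against 0.02 and 0.01 over all genes. The call of *ZMAT3* at 6 h rests on the fold limit: with DESeq2's size factors its log2 fold change was 0.98 at an adjusted *P* of 1.4e-04, and DESeq2 and a fit of only the groups compared also left it below 2-fold. So did the omission of wild type p53 replicate 1 at either time, pGFP replicate 1 at 6 h or any RW mutant replicate at 6 h (0.96 to 1.00).

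**Figure D2:**
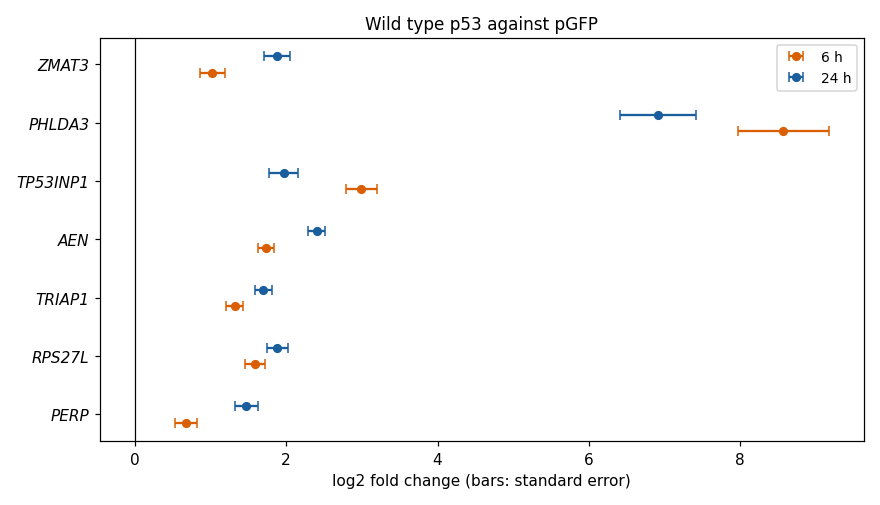
Log2 fold change of wild type p53 against pGFP (x axis) for the 7 tested members (y axis) at 6 h (orange) and 24 h (blue), where bars are standard errors. *PHLDA3*, at 8.57 and 6.91, lies far to the right of the others, which span 0.68 to 2.99, and *TP53INP1* falls from 2.99 to 1.97 while the remaining 5 are higher at 24 h.

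Whether the response itself changed with time was tested as the interaction of vector and time, for which 6.51% of all genes were called in either direction at an adjusted *P* under 0.05. Of the 7 members 4 were called, and 1 (*PERP*, adjusted *P* = 0.0498) with the 2 conflicting libraries added by the genotype field, which left *ZMAT3*, *AEN* and *TP53INP1* at adjusted *P* of 0.066, 0.22 and 0.33 against 4.90% of all genes. The fold change of wild type p53 grew from 6 h to 24 h for *ZMAT3* (by 0.85 ± 0.24 on the log2 scale, adjusted *P* = 0.029), *PERP* (0.80 ± 0.21, adjusted *P* = 0.022) and *AEN* (0.67 ± 0.15, adjusted *P* = 0.0077). It fell by 1.03 (standard error 0.27, adjusted *P* = 0.019) for *TP53INP1*. *TRIAP1* (0.38 ± 0.16, adjusted *P* = 0.18), *RPS27L* (0.29 ± 0.19) and *PHLDA3* (−1.66 ± 1.40, from a baseline of 2 counts at 6 h) did not pass. With the replicate number as a block, which the 24 h libraries call for, *TRIAP1* also passed (0.37, adjusted *P* = 0.014). The call of *ZMAT3* was lost without any 1 of 9 libraries (adjusted *P* of 0.054 to 0.085), which were wild type p53 replicates 1 to 3 and pGFP replicates 2 and 3 at 6 h, and wild type p53 replicates 1 and 2 and pGFP replicates 1 and 3 at 24 h. That of *TP53INP1* was lost without pGFP replicate 1 at either time or pGFP replicate 2 at 6 h (0.051 to 0.064). That of *PERP* was lost without wild type p53 replicate 1 at either time or pGFP replicate 3 at 24 h (0.052 to 0.093). In the pGFP cells alone 2 of the 7 members, *TP53INP1* and *AEN*, were called between 24 h and 6 h, against 9.96% of all genes in either direction. *TRIAP1* fell by 0.79 (adjusted *P* = 5.2e-06) and *ZMAT3* by 0.46 (adjusted *P* = 0.031), both less than 2-fold.

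No tested member was called with RW mutant p53, which binds DNA poorly. That held for the test by edgeR at 6 h and at 24 h, where 0.00469% of all genes were called at each time, and no member had an unadjusted *P* under 0.05 or was called by DESeq2. Of all 21335 genes tested by edgeR, 218 at 6 h and 208 at 24 h had such an unadjusted *P*. For *ZMAT3* the log2 difference from pGFP was 0.02 (95% confidence interval −0.33 to 0.36) at 6 h and 0.07 (−0.28 to 0.42) at 24 h, and for *AEN* −0.03 (−0.25 to 0.19) and 0.03 (−0.19 to 0.26). *PHLDA3* had 0, 5 and 1 counts with RW mutant p53 at 6 h and 9, 9 and 0 counts at 24 h, too few to tell a small difference from none.

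The lesion-carrying vector with active AGT was next compared with pGFP and with wild type p53. At 6 h, with 2 libraries of p53 *O*6-meG, 5 of 7 members were called higher than pGFP against 1.98% of all genes. With the conflicting libraries added there were 5 of 7 as well, against 0.249% of all genes by the genotype field and 2.44% by the start of the title. *ZMAT3* (71.9 and 57.8 CPM, log2 difference 0.67, adjusted *P* = 0.032) and *PERP* (132 and 113 CPM, 0.42, adjusted *P* = 0.17) were not called without these libraries. At 24 h 7 of 7 were called, against 7.36% of all genes. Against wild type p53 no member was called at 6 h, where 0% of all genes were called, or at 24 h, where 0.00937% were. Neither edgeR nor DESeq2 called a member, and none had an unadjusted *P* under 0.05. Of all 21335 genes tested by edgeR, 2131 at 6 h and 1058 at 24 h had such an unadjusted *P*. Neither way of adding the conflicting libraries called a member at 6 h. With the replicate number as a block, *ZMAT3* (−0.37, adjusted *P* = 0.047) and *TP53INP1* (−0.46, adjusted *P* = 0.023) were called at 6 h, against 6.42% of all genes. Pairing of libraries by number is less clear at 6 h than at 24 h. The log2 differences from wild type p53 at 24 h lay between −0.11 for *PERP* (interval −0.42 to 0.19) and 0.32 for *PHLDA3* (−0.26 to 0.90), and at 6 h between −0.42 for *TP53INP1* (−0.85 to 0.01) and 0.12 for *AEN* (−0.11 to 0.36).

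At 6 h all 7 tested members were lower with p53 TM than with wild type p53. *PHLDA3* held 0.568 and 0.953 CPM in the 2 p53 TM libraries, against 5.89 to 6.27 CPM with wild type p53, and was lower by 2.97 ± 0.39 on the log2 scale (adjusted *P* = 6.5e-06). *TP53INP1* held 20.1 and 26.7 CPM against 91.9 to 101 CPM (−2.05 ± 0.22, adjusted *P* = 4.6e-07). Both groups of libraries lay well apart for these 2 genes.

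*TRIAP1* stood at 49.6 and 44.1 CPM with p53 TM at 6 h (−1.08 ± 0.13 against wild type p53), *RPS27L* at 44.3 and 50.6 CPM (−0.94 ± 0.15) and *AEN* at 141 and 134 CPM (−0.82 ± 0.12), with adjusted *P* of 8.0e-05 or less. For *ZMAT3* the 2 libraries held 51.2 and 55.7 CPM (−0.63 ± 0.19, adjusted *P* = 0.028) and for *PERP* 96.5 and 97.4 CPM (−0.59 ± 0.17, adjusted *P* = 0.022). Both p53 TM libraries lay below all 3 wild type libraries for each of the 7 genes. The share of all genes separated in this way is not given here. Called lower were 7 of 7 members and 8.14% of all genes, and the median log2 difference was −0.94 over the members and −0.02 over all genes. The call of *ZMAT3* was lost without either p53 TM library or any wild type p53 library at 6 h (adjusted *P* of 0.056 to 0.24), and that of *PERP* without either p53 TM library or wild type p53 replicate 2 or 3 (0.054 to 0.16).

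Placement of the 2 libraries with conflicting titles decides these calls. Added by the first part of their titles, they left 7 of 7 members called lower, against 10.8% of all genes. The differences were −2.97 for *PHLDA3* and −0.72 for *ZMAT3* (adjusted *P* = 0.0027). Added by the genotype field, they left 0 of 7 called, against 0.0527% of all genes. The differences were then −1.25 for *PHLDA3* (adjusted *P* = 0.29), −1.15 for *TP53INP1* (0.12) and −0.44 for *AEN* (0.29). The library whose title starts with p53 *O*6-meG held 6.20 CPM of *PHLDA3*, 84.9 of *TP53INP1*, 263 of *AEN* and 140 of *PERP*. The library whose title starts with p53 TM held 0.768, 22.6, 134 and 98.2 CPM. The first was at or above the lowest wild type p53 library for 4 members and the second for none, and both were above the highest pGFP library for 7.

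Against pGFP at 6 h, *PHLDA3* was the member called with p53 TM (78 counts in 2 libraries, a ratio of 59.4 to pGFP with a counting interval of 15.9 to 499), where 0.0656% of all genes were called higher. *AEN* was 0.91 ± 0.12 above pGFP on the log2 scale (adjusted *P* = 1.0e-04), under 2-fold. *TP53INP1* was at 0.95 (adjusted *P* = 0.071), *RPS27L* at 0.65 (0.063), *ZMAT3* at 0.39 (0.83), *TRIAP1* at 0.24 (0.85) and *PERP* at 0.08 (1.00). Compared with p53 *O*6-meG, the same vector without *O*6-bzG, 5 of 7 members were lower at 6 h, against 3.37% of all genes. They were *PHLDA3* (−2.84 ± 0.41), *TP53INP1* (−1.63 ± 0.23), *TRIAP1* (−1.18 ± 0.14), *RPS27L* (−0.95 ± 0.16) and *AEN* (−0.95 ± 0.13), while *PERP* (−0.34, adjusted *P* = 0.41) and *ZMAT3* (−0.28, adjusted *P* = 0.59) did not pass. Added by the start of the title, the conflicting libraries left 5 of 7 called lower against 6.35% of all genes. Added by the genotype field, they left 0 of 7 against 0% of all genes, with *PHLDA3* at −0.64 (adjusted *P* = 1.00) and *ZMAT3* at 0.07. In the comparison with pGFP 3 members were called by the genotype field, against 0.0671% of all genes, and 1 by the start of the title, against 0.0575%.

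At 24 h 6 of the 7 members were not called between p53 TM and wild type p53. *PHLDA3* held 11.9, 8.63 and 6.06 CPM with p53 TM, *ZMAT3* 151, 110 and 79.1 CPM, and *RPS27L* 161, 107 and 104 CPM, and each group overlapped that of wild type p53. The log2 differences from wild type p53 were 0.32 (95% interval −0.26 to 0.90), 0.06 (−0.28 to 0.40) and 0.14 (−0.12 to 0.41). *TP53INP1*, at 166, 123 and 96.0 CPM, differed by −0.16 (−0.54 to 0.21). *AEN* held 159, 146 and 141 CPM, below the lowest wild type library of 162 CPM in every replicate (−0.16, −0.37 to 0.06, adjusted *P* = 0.32). *TRIAP1* held 64.8, 70.8 and 52.5 CPM against 69.6 to 81.4 CPM (−0.24, −0.47 to −0.01, adjusted *P* = 0.13). With the replicate number as a block *TRIAP1* passed (−0.24, adjusted *P* = 0.010).

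*PERP* remained lower at 24 h. The p53 TM libraries held 195, 144 and 118 CPM against 312, 245 and 193 CPM with wild type p53, and each lay below the wild type library of its own replicate number, although the highest of the former was just above the lowest of the latter. The difference was −0.71 ± 0.15 on the log2 scale (95% interval −1.02 to −0.41, adjusted *P* = 0.0012), and with the replicate block −0.72 (adjusted *P* = 1.0e-06). A fit of only the groups compared gave the same difference at an adjusted *P* of 0.073. *PERP* was the 1 member called lower at 24 h, against 11.9% of all genes, a share close to 1 in 7. It was also the 1 member called lower than with p53 *O*6-meG (−0.60 ± 0.15, adjusted *P* = 0.010), against 6.58% of all genes. That call was lost without p53 *O*6-meG replicate 1, p53 TM replicate 2 or p53 TM replicate 3 (adjusted *P* of 0.075, 0.055 and 0.090), and in a fit of only the groups compared (0.19). In this comparison *AEN* (−0.29, adjusted *P* = 0.077) and *TRIAP1* (−0.33, adjusted *P* = 0.060) did not pass, and the replicate block added both (adjusted *P* of 0.018 and 0.0017). One or both also passed without pGFP replicate 1, RW mutant replicate 1, p53 *O*6-meG replicate 3 or p53 TM replicate 2 at 24 h (0.030 to 0.049). Whether *PERP* differed from the other members in its response to TM was not tested.

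Against pGFP at 24 h, 6 of the 7 members were called higher with p53 TM, against 3.03% of all genes. *PERP* was 0.76 ± 0.15 above pGFP (adjusted *P* = 9.5e-04), under 2-fold. The change of the p53 TM difference from 6 h to 24 h was tested as an interaction, for which 1.27% of all genes were called higher. Of the 7 members 5 were called higher: *PHLDA3* (by 3.29 ± 0.48, adjusted *P* = 2.2e-04), *TP53INP1* (1.88 ± 0.28), *RPS27L* (1.08 ± 0.20), *TRIAP1* (0.84 ± 0.17) and *AEN* (0.66 ± 0.16, adjusted *P* = 0.026). *ZMAT3* (0.69 ± 0.25, adjusted *P* = 0.23) passed with the replicate block (adjusted *P* = 0.0034) and without p53 TM replicate 3 at 24 h (0.029). *PERP* gave −0.12 (95% interval −0.58 to 0.34, adjusted *P* = 0.92). Without p53 TM replicate 3 at 6 h, *TRIAP1* (adjusted *P* = 0.076) and *AEN* (0.15) were not called, and *AEN* was also lost without p53 TM replicate 1 at either time, wild type p53 replicate 1 or 2 at 6 h or wild type p53 replicate 3 at 24 h (0.056 to 0.11). With DESeq2's size factors *AEN* missed the threshold (0.58, adjusted *P* = 0.066), and so did *RPS27L* in a fit of only the groups compared (adjusted *P* = 0.056). With the 2 conflicting libraries added by the genotype field 0 of 7 were called, against 0.0527% of all genes.

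The same data were expressed as the share of the wild type rise over mean pGFP that each library kept, for the members called with wild type p53 at that time. At 6 h the p53 TM libraries kept 9.20% and 15.6% of the rise of *PHLDA3*, 9.37% and 17.1% for *TP53INP1* and 7.60% and 16.8% for *TRIAP1*. They kept 23.3% and 33.7% for *RPS27L*, 24.8% and 35.2% for *ZMAT3*, and 36.0% and 39.9% for *AEN*. With the conflicting libraries added by the start of the title, the mean share kept ranged from 10.7% for *TRIAP1* to 37.2% for *AEN*, with *ZMAT3* at 22.4% and *RPS27L* at 33.4%. By the genotype field it ranged from 37.4% for *TP53INP1* to 62.5% for *AEN*, with *PHLDA3* at 42.4% and *ZMAT3* at 46.9%. The 2 p53 *O*6-meG libraries in the group kept between 40.3% and 120% at 6 h.

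At 24 h the mean share kept with p53 TM was 125% ± 41.7 for *PHLDA3*, 114% ± 39.2 for *RPS27L*, 106% ± 45.8 for *ZMAT3*, 87.2% ± 6.86 for *AEN*, 85.6% ± 32.8 for *TP53INP1* and 77.9% ± 18.2 for *TRIAP1* (SD, n = 3). For *PERP* it was 39.0% ± 24.5, with libraries at 17.5% to 65.6%. With p53 *O*6-meG the means lay between 88.3% for *PERP* and 125% for *PHLDA3*. The median share kept with p53 TM was 20.9% at 6 h, over the members without *PERP*, and 87.2% at 24 h, over the members with it. These medians therefore cover unlike sets. That at 6 h was 45.5% with the conflicting libraries added by the genotype field and 17.7% by the start of the title. At 24 h, replicate 1 was the highest and replicate 3 the lowest for *ZMAT3*, *TP53INP1*, *RPS27L* and *PERP* with wild type p53, p53 *O*6-meG and p53 TM alike. The part of this order in the SD was not tested.

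**Figure D3:**
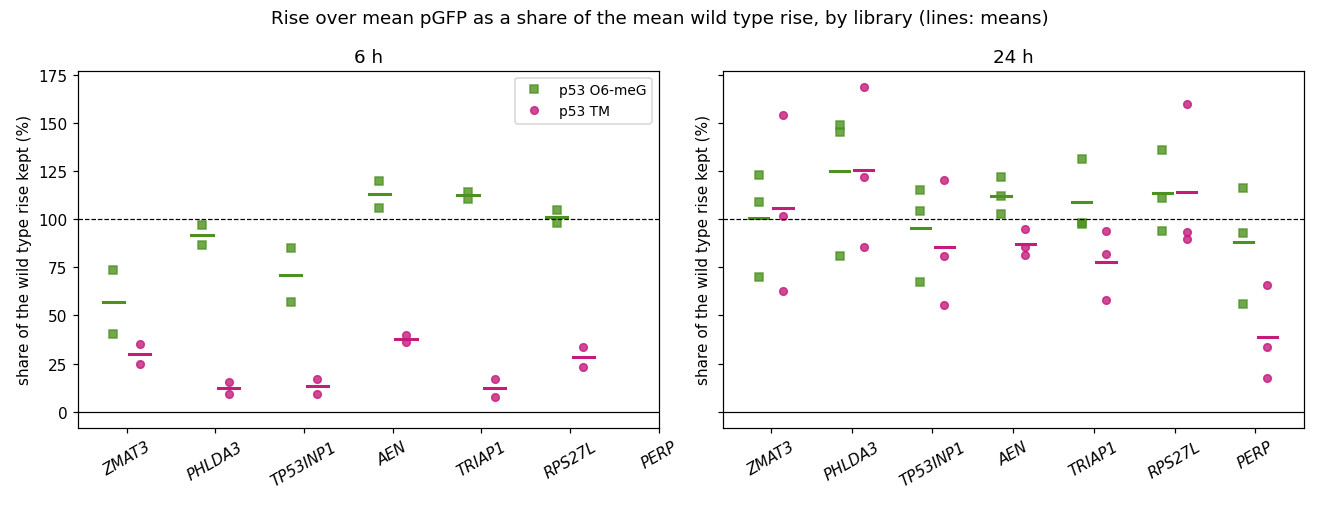
Share of the wild type rise over mean pGFP (y axis, percent) kept by each p53 *O*6-meG (green squares) and p53 TM (magenta circles) library at 6 h and 24 h, by member (x axis), where short lines are means, the dashed line is the wild type mean and *PERP* is not shown at 6 h because its wild type rise was under 2-fold. At 6 h the p53 TM libraries lie between 7.60% and 39.9%, and at 24 h *PERP* has the lowest mean of p53 TM, 39.0%.

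The members were also compared by the course of their levels over the 28 libraries, as Pearson's correlation of log2(CPM + 1). This describes levels that share the same libraries and groups, so no *P* is given. *PHLDA3* and *RPS27L* ran closest to each other (r = 0.992), as did *AEN* and *TRIAP1* (r = 0.976), while *TP53INP1* and *AEN* were least alike (r = 0.587). Among the other genes with a mean of at least 1 CPM, those most like *PHLDA3* were *FDXR* (r = 0.995) and *MDM2* (0.994), and those most like *RPS27L* were *LNCTAM34A* (0.990) and *MDM2* (0.988). *ZMAT3* was nearest to *HSPA4L* (0.978) and *RRM2B* (0.972), *TP53INP1* to *ANKRA2* (0.988) and *KANK3* (0.978), *AEN* to *LIG1* (0.956) and *MAMDC4* (0.947), *TRIAP1* to *NFKBIE* (0.979) and *CCDC8* (0.970), and *PERP* to *GNPTAB* (0.991) and *TMTC3* (0.989).

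Relatives and partners of the members were 15 genes chosen by name. They comprised *ZMAT1*, *ZMAT2*, *ZMAT5*, *PHLDA1*, *PHLDA2*, *TP53INP2*, the *AEN* relatives *ISG20* and *ISG20L2*, *RPS27*, the PRELI family with which TRIAP1 works (*PRELID1*, *PRELID3A*, *PRELID3B*), the mitophagy genes *BNIP3* and *BNIP3L*, and *PMP22*, a tetraspan relative of *PERP*. None of the 15 was called by edgeR with wild type p53 at either time under the 2-fold rule. Of all genes, 4.39% were called higher at 6 h and 9.22% at 24 h. The median log2 differences of the 15 were 0.04 at 6 h and 0.08 at 24 h. An unadjusted *P* under 0.05 was found for 3 at 6 h and 9 at 24 h, against 4131 and 9146 of all 21335 genes tested. At 24 h *PRELID3A* was higher by 0.82 ± 0.11 on the log2 scale (adjusted *P* = 2.6e-06) and *ISG20* by 0.76 ± 0.18 (adjusted *P* = 0.0017), and *PMP22* (−0.70 ± 0.11, adjusted *P* = 9.7e-06) and *ZMAT1* (−0.61 ± 0.16, adjusted *P* = 0.0036) were lower. With p53 TM against wild type p53, 0 of 15 were called at 6 h, against 8.14% of all genes called lower and 2.775% higher. At 24 h 2 were called, both lower, against 11.9% of all genes called lower and 9.285% higher. The share called lower is close to 2 in 15. *PHLDA2* was lower by 0.67 (standard error 0.14, adjusted *P* = 9.8e-04) and *PRELID3A* by 0.49 (standard error 0.11, adjusted *P* = 0.0024).

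Other established p53 targets, 20 genes chosen by name, were examined in the same way. With wild type p53 18 were called higher at 6 h and 19 at 24 h, against 4.39% and 9.22% of all genes. The medians of log2 fold change were 1.98 and 2.12. With p53 TM against wild type p53, 19 of 20 were called lower at 6 h, against 8.14% of all genes and at a median of −1.54, and 4 of 20 at 24 h, against 11.9% of all genes and at a median of −0.15. The count at 6 h was 19 of 20 with the conflicting libraries added by the start of the title (10.8% of all genes) and 0 of 20 by the genotype field (0.0527%). The count at 24 h was 4 of 20 by the start of the title (12.55%) and 0 of 20 by the genotype field (10.03%). The 4 called at 24 h without these libraries were *CDKN1A* (−0.77), the CDK inhibitor p21, *BBC3* (−0.76), the BH3-only protein PUMA, *BTG2* (−0.52), an antiproliferative gene, and *PLK3* (−0.33), a stress kinase. The change of the p53 TM difference from 6 h to 24 h was above 0 for all 20 and was called higher for 18, against 1.27% of all genes, and for 0 of the 20 with the conflicting libraries added by the genotype field.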

How the data were processed

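RNA-seq of sorted H1299 cells was analysed from a deposited table of raw counts. The authors had aligned reads to hg38 with STAR 2.5.3a and counted them on genes with featureCounts of Subread 1.5.2, without normalization, and used DESeq2 1.20 for their own tests. A deposited table of normalized values was not used. Whether counting used the strand is not given in the sources used here.

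The counts were tested with edgeR 4.0.16 in R 4.3.3: filterByExpr kept 21335 of 39359 genes, libraries were scaled by TMM, and 28 libraries in 10 groups were fitted together by the quasi-likelihood test with Benjamini-Hochberg adjustment over all genes tested. Comparisons with pGFP and of pGFP over time also asked for a 2-fold change. Libraries held 32302699 to 71950532 counts, which limits *PHLDA3* without p53 and *SPATA18* to counting noise. Counting intervals are exact at 95%. Replicates are biological triplicates per the methods, and in 26 within-group pairs the chi-square of the counts per degree of freedom was 5.51 to 41.9, so that none was a copy. Residuals of same-numbered libraries correlated above 0.1 in 30 of 30 pairs at 24 h (0.333 to 0.808) and 8 of 9 at 6 h (lowest 0.05). Those of differently numbered libraries did so in 14 of 60 pairs at 24 h and 2 of 18 at 6 h. The numbers were therefore taken to pair libraries at 24 h, and pairing is less clear at 6 h. The fit reported first holds no replicate term, so that its 24 h errors, intervals and calls leave this pairing out. With the replicate block, 2 members were called lower at 24 h with p53 TM than with wild type p53 (20.2% of all genes). Against p53 *O*6-meG 3 were called lower (15.1%). The test was checked on simulated counts.

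The members and gene lists were chosen with earlier results of these data known. Named genes are the members, 15 relatives and partners, up to 4 examples of 20 other p53 targets, and for each member the 2 most correlated genes. Alternatives were DESeq2's size factors, DESeq2 1.42.0, 2 other filters, a fit of only the groups compared, a replicate block within each time, both placements of 2 libraries with conflicting titles, and each library left out. Identifiers carry the versions of the raw counts, positions are from GENCODE v44 (hg38), and 6 of 8 members matched RefSeq promoter windows. Figures were drawn in matplotlib. A result for 1 gene is not reported here.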

Additional observations from a re-analysis of the deposited data

Results flagged for a closer look

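Of the 7 members tested, 4 had a response to wild type p53 that differed between 6 h and 24 h by the interaction of vector and time: *ZMAT3* (0.85 higher at 24 h on the log2 scale), *TP53INP1* (−1.03), *AEN* (0.67) and *PERP* (0.80). The difference between p53 TM and wild type p53 also differed between the times, upwards for *PHLDA3* (3.29), *TP53INP1* (1.88), *AEN* (0.66), *TRIAP1* (0.84) and *RPS27L* (1.08). Of all genes, 6.51% were called for the former change in either direction and 1.27% higher for the latter. With the conflicting libraries added by the genotype field, 1 and 0 members were called, against 4.9% and 0.0527% of all genes. The first call of *ZMAT3* was also lost without any 1 of 9 libraries.

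The 2 libraries of replicate 2 at 6 h that belong to no group because their titles conflict held *PHLDA3* above all pGFP libraries, at 6.20 CPM where the title starts with p53 *O*6-meG and at 0.768 CPM where it starts with p53 TM.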

How the results depend on the processing

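The counts of members called were within 1.5 times of the reported value in 121 of 136 comparisons with an alternative that leaves no library out. The count lower with p53 TM than with p53 *O*6-meG at 24 h, 1 in the report, was 2 with DESeq2's size factors, 3 with DESeq2's test, 3 with at least 10 counts in every library, 0 in a fit of only the groups compared, 3 with the replicate block, 2 with the conflicting libraries placed by title start, and 0 to 3 when single libraries were left out. The count lower with p53 TM than with wild type p53 at 24 h was also 1, against 11.9% of all genes. It was 0 in a fit of only the groups compared (6% of all genes) and 2 with the replicate block (20.2%). The block also called *ZMAT3* (−0.37, adjusted *P* = 0.047) and *TP53INP1* (−0.46, adjusted *P* = 0.023), 2 members, between p53 *O*6-meG and wild type p53 at 6 h. Of all genes 6.42% were called there, and pairing by number is less clear at 6 h than at 24 h. Of p53 TM against pGFP at 6 h, 0 members were called with at least 10 counts in every library, since that filter removes *PHLDA3*. Placing the conflicting libraries by the genotype field gave 3 members there (0.0671% of all genes). At 6 h it gave 0 for p53 TM against wild type p53 (0.0527%) and 0 against p53 *O*6-meG (0%). It gave 1 for the change of the wild type response (4.9%) and 0 for the change of the p53 TM difference (0.0527%). With that placement the median share kept at 6 h was 71.4% (p53 *O*6-meG) and 45.5% (p53 TM), and by title start it was 100.2% for p53 *O*6-meG. With single libraries left out, the change of the wild type response was called for 2 to 4 members and that of the p53 TM difference for 3 to 6, and the median shares kept at 6 h were 94.9% to 98.2% (p53 *O*6-meG) and 20.04% to 25.4% (p53 TM). The cause of these changes was not tested except where named. No called member changed direction under these alternatives, but differences close to 0 that were not called did cross it. The depth of 6 h libraries gave 2 counts of *PHLDA3* without p53, and n = 2 at 6 h limits p53 TM and p53 *O*6-meG.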
